A study of Mus musculus with 6 samples.

Results

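Nuclear genes of complex I, named *Nduf* in the mouse, were examined in heart areas with high or low Atf3 protein in mice with a knockdown of the complex I subunit Ndufs6. Members were all protein-coding genes of the count table whose symbol starts with *Nduf*, which gave 47 of the 17145 genes listed. Of these, 44 had at least 10 UMIs summed over the 6 libraries and were tested among 7665 such genes. A UMI is a random tag that allows copies of the same cDNA molecule to be counted once. In Atf3 high areas 36 of the 44 tested members were lower than in Atf3 low areas (81.8%, against 44.8% of all tested genes). Their median log2 fold change was −0.31, against 0.11 over all tested genes. With scaling by library size alone, 28 of the 44 were lower, against 35.4% of all tested genes. By contrast, *Ndufs5* was higher with a log2 fold change of 2.53 ± 0.59 (SE, n = 3 libraries per group). By edgeR's quasi-likelihood F test, no member passed a Benjamini-Hochberg adjusted p of 0.05, against 7 of the 7665 tested genes.

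Both groups were FS6KD hearts, which carry a gene trap in *Ndufs6* (*Ndufs6* gt/gt, a knockdown most marked in the heart, on a mixed genetic background). The labels give female mice, heart tissue and cardiomyocytes, the age of the mice behind these sections was not given in the sources used here, and no wild-type library was compared. In photo-isolation chemistry, mRNA of a fresh-frozen section is reverse-transcribed in place with photo-caged primers, and only areas exposed to ultraviolet light enter the CEL-seq2 library. Anti-Atf3 immunostaining chose the areas within Atf3-positive clusters, 3 high and 3 low. The study describes these as biological replicates and names a pairwise t test, without saying whether a heart gave both kinds of area. An area can hold more than the cells of interest, and in such bulk samples fewer cells of a type and less RNA per cell cannot be told apart.

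Complex I (NADH:ubiquinone oxidoreductase) is the entry point of electrons from NADH into the respiratory chain of the inner mitochondrial membrane. It is L-shaped: the N module of the matrix arm oxidizes NADH, the Q module passes electrons to ubiquinone, and the membrane arm pumps protons. Core subunits carry out the reaction and come from both genomes, accessory subunits stabilize the complex, and assembly factors help to build it without remaining in it. Cardiomyocytes, rich in mitochondria, depend on it for ATP, and complex I deficiency is a known cause of mitochondrial cardiomyopathy.

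Atf3 is a basic leucine zipper factor of the ATF and CREB family, whose consensus site is the cAMP response element TGACGTCA. Upstream sequence was therefore read from RefSeq (GRCm38.p6), from 250 bases before to 50 bases after each gene's start, for 41 of the 47 members. Both strands were searched for these exact letters, which were present in 3 members (7.32%), *Ndufa10*, *Ndufa11* and *Ndufb2*, against 2.03% of all 27025 genes with such a window and 3.92% of the 5842 tested genes with one. The part of the *Ndufs5* window upstream of its exons, shown because *Ndufs5* had the largest difference of all members, runs over chr4:123718203-123718436 on the minus strand. It has none of these letters and, in capitals, a core element of estrogen-related receptors read on the other strand (AAGGTCA). The *Ndufb2* stretch, shown as an example of the cAMP response element (capitals), is chr6:39592526-39592564 on the plus strand.
Ndufs5: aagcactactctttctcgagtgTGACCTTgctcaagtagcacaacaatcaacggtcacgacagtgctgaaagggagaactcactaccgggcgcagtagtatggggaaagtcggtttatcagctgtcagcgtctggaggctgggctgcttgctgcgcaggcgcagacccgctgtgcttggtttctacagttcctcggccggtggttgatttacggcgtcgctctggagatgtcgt
Ndufb2: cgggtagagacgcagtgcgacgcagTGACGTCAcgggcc

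Other cores of factors known to act on respiratory genes were searched in the same windows, again on both strands. Shares of members are over the 41 with a window, which include the untested *Ndufs6* and *Ndufb6*. The YY1 core (AAGATGGC) was found in 8 members (19.5%, against 3.19% of all genes and 5.99% of tested genes). These were *Ndufa3*, *Ndufa9*, *Ndufaf8*, *Ndufb8*, *Ndufc1*, *Ndufs4*, *Ndufs6* and *Ndufs7*. All 8 of these cores lay downstream of the start, between 10 and 45 bases from it. The NRF1 core (GCGCATGCG) was found in 4 members (9.76%, against 1.95% of all genes and 4.57% of tested genes). The GABP core (CCGGAAG) was found in 6 (14.6%, against 9.93% and 21.2%). The estrogen-related receptor element was found in 3 (7.32%, against 5.38% and 3.82%). A match is a description of the sequence and not evidence of a bound site.

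The libraries held 184872, 81117 and 210588 UMIs for Atf3 high replicates 1, 2 and 3, and 171536, 125522 and 81917 for Atf3 low. Levels are given as CPM, UMIs rescaled to a common library size after TMM normalization, on which 1 UMI was worth 4.66 to 13.6 CPM. The biological coefficient of variation was 53.6%. Atf3 high replicate 2 went against its label, with 16 UMIs on the Y chromosome genes *Eif2s3y* and *Ddx3y* but 0 of *Xist*, so that results are also given without it. *Atf3* itself had 50, 7 and 25 UMIs in Atf3 high against 35, 0 and 8 in Atf3 low, ranges that overlap.

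*Ndufs6*, the targeted gene, encodes a zinc-binding accessory subunit of the N module and had 2, 0 and 3 UMIs in the Atf3 high libraries but none in any Atf3 low library. These 5 of 476577 UMIs against 0 of 378975 are too few to compare, since a count of 0 allows up to 3 UMIs, a level of 7.92 CPM of the pooled Atf3 low UMIs before TMM scaling (counting error only). The gene overlaps *Mrpl36* on the opposite strand (56 UMIs) and has a pseudogene copy of 96.6% identity, *Ndufs6b*. *Ndufb6*, of the membrane arm, had 6 UMIs and *Ndufa4l2* had 1, so that these were not tested either. *Ndufb6* overlaps *Smim27* on the opposite strand (16 UMIs).

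Over the whole list no member was called, against 7 of all tested genes (0.0913%). An unadjusted p under 0.05 was found for 2 members (4.55%, against 5.79% of all tested genes), *Ndufs5* higher and *Ndufv3* lower. DESeq2 called 1 member, *Ndufs5* (against 12 of 7665 genes), and limma-trend called none (against 3 of 7665 genes). The share of members with a negative log2 fold change was 81.8%, against 44.8% of all tested genes. With edgeR's stricter filterByExpr filter on low counts, 30 of 36 members were lower (83.3%, against 49.3% of 1988 genes). Scaling by library size alone left 28 of the 44 members lower, while the median over all genes moved from 0.11 to 0.31. Relative to the median of all genes, the members' median differed by −0.42 with TMM and by −0.43 with library size scaling, and 38 of 44 members were below the all-gene median in both. Without Atf3 high replicate 2, 31 of 43 members were lower, with a median of −0.22, and 8 (18.6%) did not overlap between the groups, against 18.8% of all genes tested in that setting. With each library left out in turn, module medians lay between −0.73 and −0.26 (N module), −0.54 and −0.05 (Q module), −0.36 and −0.11 (proximal arm), −0.48 and −0.16 (distal arm) and −1.11 and 0.17 (*Ndufaf* factors).

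**Figure D1:**
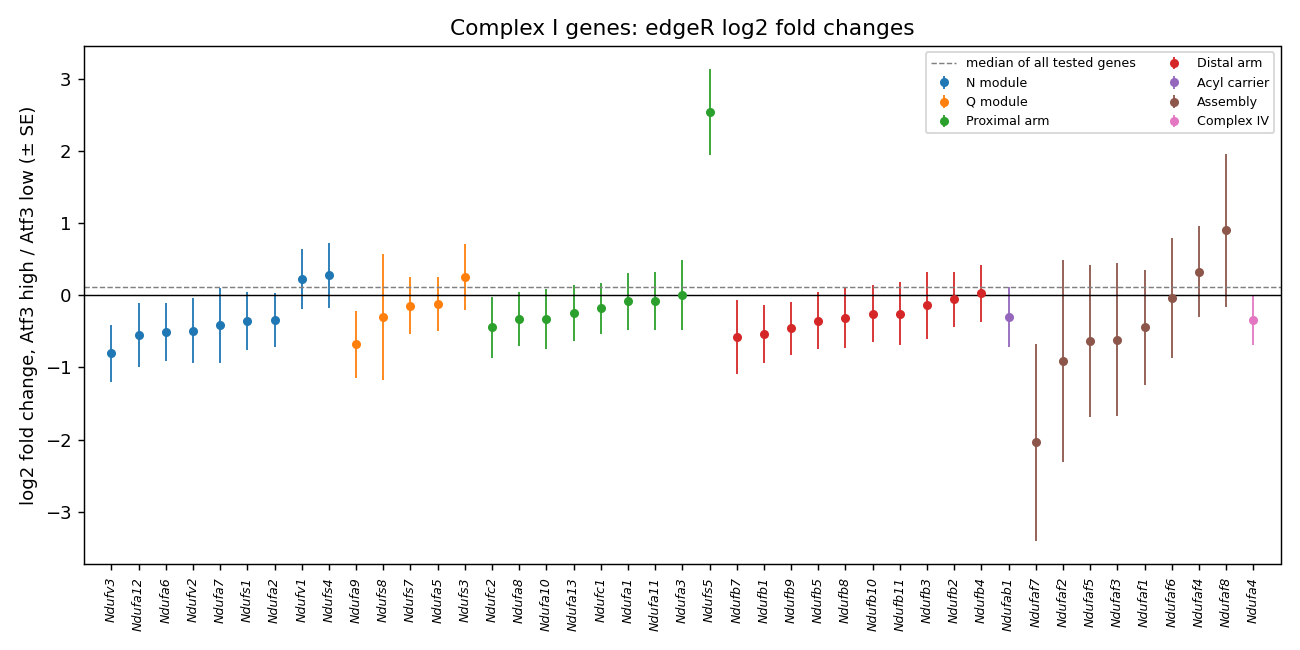
Log2 fold change (vertical axis, Atf3 high over Atf3 low, with its standard error) of 43 tested members, grouped by their place in complex I. Most points lie below 0, a majority of them by less than 1 SE, and Ndufs5 stands far above the others at 2.53.

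**Figure D2:**
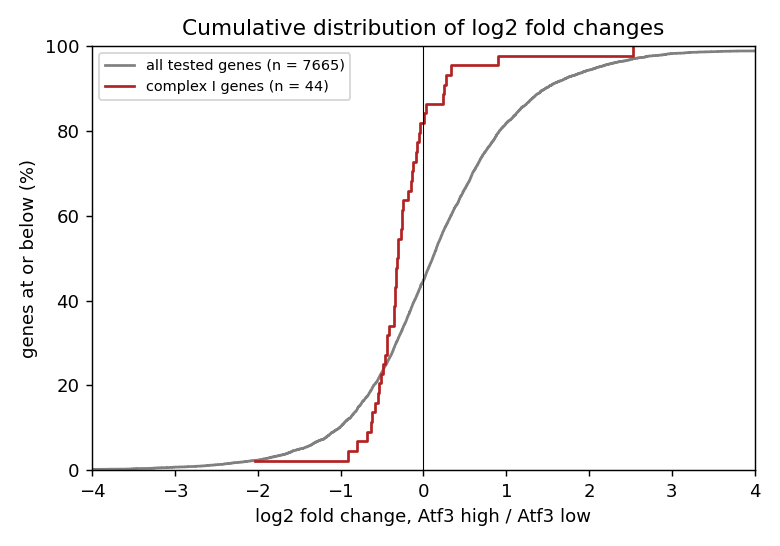
Cumulative share of genes (vertical axis) by log2 fold change (horizontal axis) for the members and for all tested genes. The curve of the members lies to the left, with a median of −0.31 against 0.11.

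The summed level of the 44 tested members was 15900, 16060 and 22050 CPM in Atf3 high against 22410, 18190 and 24620 CPM in Atf3 low. The means were 18000 ± 3501 and 21740 ± 3266 CPM (SD, n = 3), and the groups overlapped because Atf3 high replicate 3 exceeded Atf3 low replicate 2. As a share of all UMIs, all 47 members took 1.86% ± 0.337 in Atf3 high against 1.96% ± 0.236 in Atf3 low, a difference of −0.0993 percentage points that is within the spread of either group. The individual shares ran from 1.64% (95% exact binomial interval 1.56 to 1.73) to 2.25% (2.19 to 2.32) in Atf3 high against from 1.74% (1.67 to 1.81) to 2.21% (2.11 to 2.31) in Atf3 low. The members' highest value fell in Atf3 low replicate 3 for 15 genes (34.1%, against 15.2% of all tested genes). It fell in Atf3 low replicate 1 for 12 (27.3%, against 16.2%) and in Atf3 high replicate 3 for 11 (against 16.2%). The lowest value fell in Atf3 high replicate 2 for 16 members (36.4%, against 29.1% of all tested genes). It fell in Atf3 high replicate 1 for 11 (against 11.45%) and in Atf3 low replicate 2 for 10 (22.7%, against 15.5%). Atf3 high replicate 3 held the lowest value for 1 member (2.27%, against 8.66%). It was thus more often highest, and less often lowest, among members than among all tested genes. Without it 35 of 42 members were lower, with a median of −0.39.

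**Figure D3:**
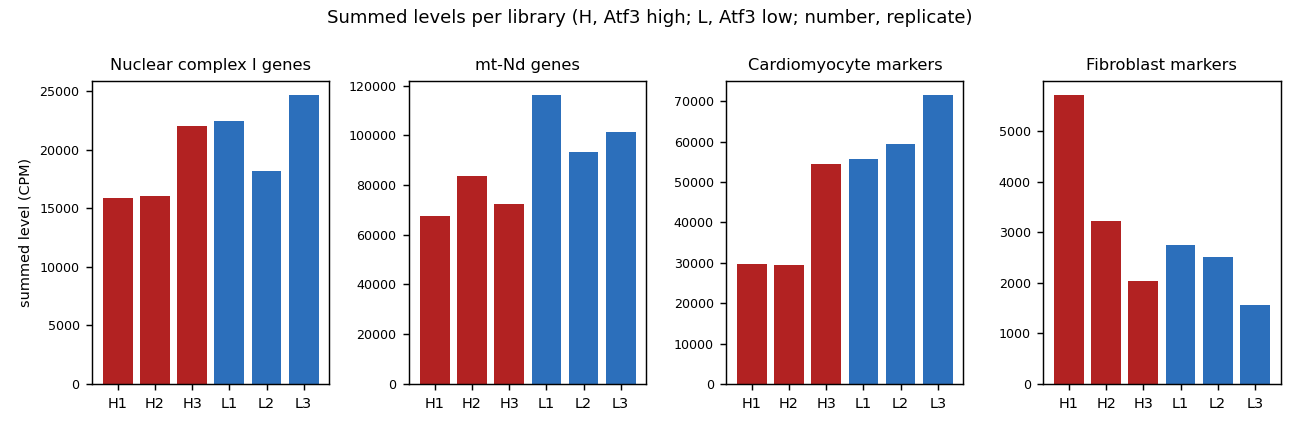
Summed level per library (bars, in CPM; H1 to H3 are Atf3 high and L1 to L3 Atf3 low replicates) of the 44 tested nuclear members, the 7 mitochondrially encoded subunits, and the cardiomyocyte and fibroblast markers. The nuclear members and the fibroblast markers overlap between the groups. The mitochondrially encoded subunits do not, nor do the cardiomyocyte markers, though narrowly (54570 CPM in H3 against 55600 in L1). As a share of all UMIs, without TMM scaling, the cardiomyocyte markers overlap. Nuclear members and cardiomyocyte markers are both lowest in H1 and H2 and highest in L3.

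In the N module, which takes electrons from NADH, 7 of 9 tested subunits were lower and the median log2 fold change was −0.42. *Ndufv3* (chr17:31520115-31531331, plus strand) encodes an accessory subunit at the NADH-binding tip. It had 61, 36 and 130 UMIs in Atf3 high against 120, 73 and 70 in Atf3 low, or 310, 435 and 606 CPM against 809, 609 and 953. The groups did not overlap, although Atf3 high replicate 3 and Atf3 low replicate 2 differed by only a few CPM. The log2 fold change was −0.80 ± 0.40 (SE), with an adjusted p of 0.854 in edgeR's quasi-likelihood test (unadjusted p = 0.0486). In the exact two-sided permutation test p was 0.1, the smallest that 3 against 3 libraries can give. Without Atf3 high replicate 2 the log2 fold change was −0.79.

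The N-module core subunits did not share a direction. *Ndufv1*, which binds FMN and NADH, had 366, 579 and 680 CPM in Atf3 high against 458, 284 and 654 in Atf3 low (log2 fold change 0.23 ± 0.42). *Ndufv2*, a neighbouring iron-sulfur subunit, had 224, 181 and 317 CPM against 458, 250 and 313 (−0.49 ± 0.45). *Ndufs1*, the large iron-sulfur subunit, had 528, 471 and 498 CPM against 890, 392 and 640 (−0.36 ± 0.40). In each case the groups overlapped, and for *Ndufs1* both the highest and the lowest value came from Atf3 low libraries. *Ndufs1* overlaps *Eef1b2* (213 UMIs) on the opposite strand, and the strand setting of the counting was not given in the sources used here.

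Accessory N-module subunits also went both ways, with *Ndufs4* higher and the others tested, among them *Ndufv3* (−0.80, described above) and *Ndufa12*, lower. *Ndufa12* had 325, 205 and 778 CPM in Atf3 high against 566, 375 and 1035 in Atf3 low (−0.55 ± 0.44), and within each group the values spread by more than the groups differed. *Ndufs4*, needed for a stable N module, had 335, 157 and 377 CPM against 263, 200 and 272 (0.27 ± 0.46). *Ndufa6*, an N-module subunit of the LYR family, had 462, 314 and 731 CPM against 620, 584 and 981 (−0.51 ± 0.40). *Ndufa12*, *Ndufs4* and *Ndufa6* each overlapped between the groups. The remaining N-module members *Ndufa2* (−0.35) and *Ndufa7* (−0.42) overlapped as well.

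In the Q module 5 of 6 subunits were lower, with a median of −0.21, which scaling by library size moved to −0.01 with 3 of 6 lower. *Ndufs7*, which holds the last iron-sulfur cluster before ubiquinone, had 483, 459 and 722 CPM in Atf3 high against 573, 792 and 477 in Atf3 low (−0.14 ± 0.39). *Ndufs3*, another core subunit, had 239, 253 and 293 CPM against 256, 175 and 232 (0.25 ± 0.46). Neither separated the groups.

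*Ndufs8*, a core iron-sulfur subunit, had only 5, 3 and 12 UMIs against 7, 11 and 0, and its log2 fold change was −0.30 ± 0.88 in edgeR but 0.62 in limma-trend. A processed pseudogene of *Ndufs3* with 98.6% identity, *Gm12251*, held 15 UMIs, and summing both gave a log2 fold change of 0.24. *Ndufa9*, an accessory subunit at the junction of the arms, had 168, 133 and 331 CPM against 229, 442 and 368 (−0.68 ± 0.46), and its groups overlapped through Atf3 high replicate 3. *Ndufa5* had a log2 fold change of −0.12.

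The proximal membrane arm held the largest difference. *Ndufs5* (chr4:123712710-123718202, minus strand), whose upstream window is printed above, encodes an accessory subunit on the intermembrane space side. It had 51, 11 and 65 UMIs in Atf3 high against 7, 5 and 2 in Atf3 low, or 259, 133 and 303 CPM against 47.2, 41.7 and 27.2. The lowest Atf3 high library, replicate 2, was still above all 3 Atf3 low libraries, and the means were 232 ± 88.3 and 38.7 ± 10.3 CPM (SD, n = 3). The log2 fold change of 2.53 ± 0.59 (SE), a 5.79-fold higher level, had an adjusted p of 0.0906 in edgeR's quasi-likelihood test and a p of 0.1 in the exact two-sided permutation test. With other settings it passed an adjusted p of 0.05, by DESeq2 (2.53, adjusted p = 0.0328) and by edgeR with library size scaling (2.74, adjusted p = 0.0482). Over all alternatives its log2 fold change lay between 2.29 and 2.80 and its adjusted p between 0.0144 and 0.815. Without Atf3 high replicate 2 it was 2.77 (edgeR, adjusted p = 0.121).

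A processed pseudogene of *Ndufs5* with 99.4% identity over 319 bases, *BC002163*, held 1 UMI, and summing both left the log2 fold change at 2.54. Leaving *Ndufs5* out of the list, 36 of the other 43 members were lower, with a median of −0.32. The proximal arm as a whole had 7 of 9 subunits lower and a median of −0.18, and 4 of 9 lower and a median of 0.03 when scaled by library size. Its other members were *Ndufc2* (−0.44), *Ndufa8* (−0.33), *Ndufa10* (−0.33), *Ndufa13* (−0.24), *Ndufc1* (−0.18), *Ndufa1* (−0.09), *Ndufa11* (−0.08) and *Ndufa3* (0.01), and each overlapped between the groups. *Ndufa10* and *Ndufa11*, which have the cAMP response element, thus differed by less than their standard errors of 0.42 and 0.40.

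In the distal membrane arm, the part built around the mitochondrially encoded ND4 and ND5, 9 of 10 tested subunits were lower and the median was −0.29. *Ndufb9* had 544, 724 and 806 CPM in Atf3 high against 1038, 843 and 967 in Atf3 low. Each Atf3 low library was above each Atf3 high library, and the log2 fold change was −0.46 ± 0.37 (SE). *Ndufb5* had 483, 362 and 457 CPM against 499, 576 and 599, again without overlap (−0.35 ± 0.40), although the gene overlaps *Mrpl47* (52 UMIs) on the opposite strand. Together with *Ndufv3*, these were the 3 members that were lower without overlap (6.82%, against 3.89% of all tested genes). For all 3 the exact two-sided permutation p was 0.1, a value fixed by the lack of overlap. With library size scaling, and without a filter on low counts, none of the 3 was free of overlap.

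*Ndufb8*, an accessory subunit often used as a protein marker of assembled complex I, had 422, 410 and 773 CPM against 357, 567 and 1117 (−0.32 ± 0.42), with its lowest and highest values both in Atf3 low. *Ndufb1* had 478, 543 and 354 CPM against 923, 551 and 490 (−0.53 ± 0.40), and overlapped through Atf3 high replicate 2 and Atf3 low replicate 3. The log2 fold changes of the others were −0.58 (*Ndufb7*), −0.26 (*Ndufb10*), −0.25 (*Ndufb11*), −0.14 (*Ndufb3*), −0.06 (*Ndufb2*) and 0.03 (*Ndufb4*). *Ndufb2*, with the cAMP response element printed above, had between 666 and 1039 CPM in Atf3 high against between 551 and 981 in Atf3 low. *Ndufab1*, the mitochondrial acyl carrier protein found in both arms, had a log2 fold change of −0.30.

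**Figure D4:**
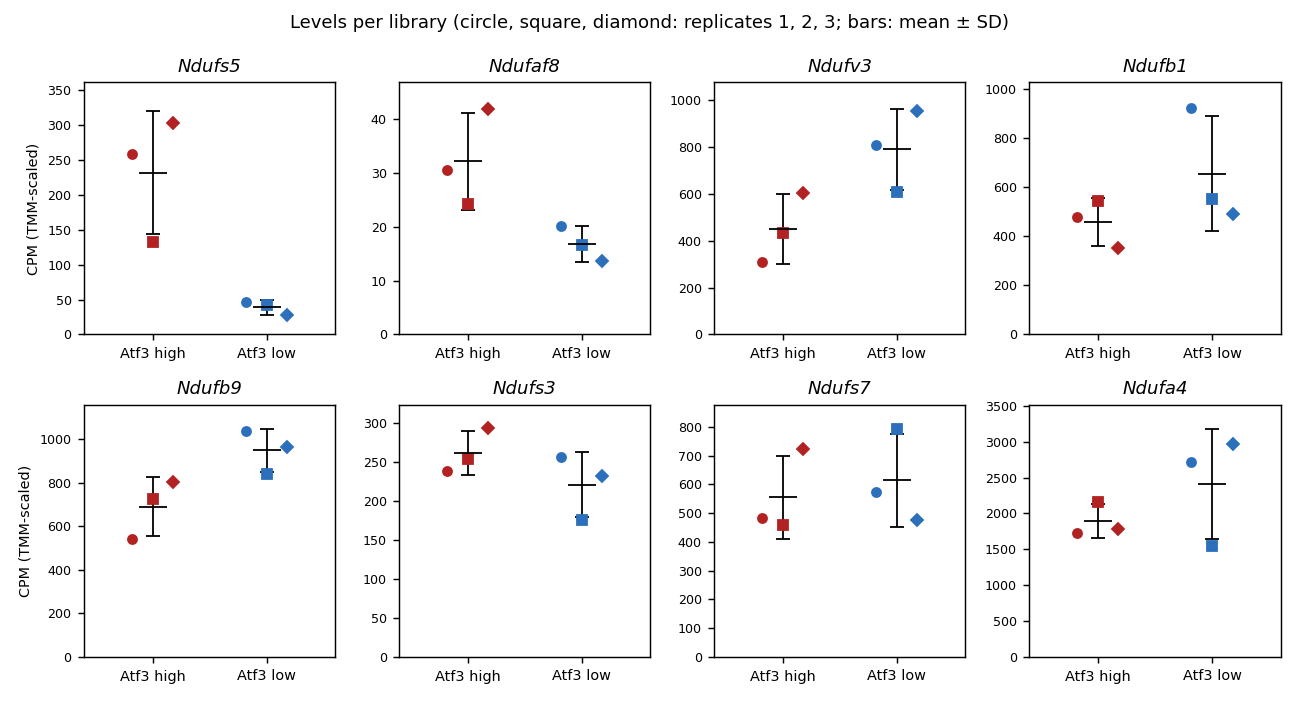
CPM per library (points) of 8 members in Atf3 high and Atf3 low, with the group mean and SD as black bars. Ndufs5 and Ndufaf8 are higher and Ndufv3 and Ndufb9 lower in all 3 Atf3 high libraries, and the others overlap.

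The *Ndufaf* assembly factors were sparsely counted, and 6 of 8 were lower with a median of −0.53, which moved to 0.04 when Atf3 high replicate 3 was left out and to 0.17 when Atf3 low replicate 1 was, and only *Ndufaf4* was left by the filterByExpr filter. *Ndufaf8*, which stabilizes Ndufaf5, had 6, 2 and 9 UMIs in Atf3 high against 3, 2 and 1 in Atf3 low, or 30.5, 24.1 and 41.9 CPM against 20.2, 16.7 and 13.6. Its groups did not overlap, but the log2 fold change of 0.90 had a standard error of 1.06, and the counts of replicate 2 were the same in both groups. With *Ndufs5* it was 1 of 2 members higher without overlap (4.55%, against 7.07% of all tested genes).

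*Ndufaf7*, a mitochondrial methyltransferase, had 0, 0 and 3 UMIs against 3, 5 and 1 (−2.03 ± 1.37), all near the limit of 3 UMIs. *Ndufaf5*, which hydroxylates Ndufs7, had 7, 0 and 5 UMIs against 8, 5 and 0, and *Ndufaf3* and *Ndufaf4*, partners in building the Q module, had log2 fold changes of −0.62 ± 1.06 and 0.33 ± 0.63. *Ndufaf1*, of the membrane arm assembly complex, was at −0.44 ± 0.80. *Ndufaf2*, a paralogue of *Ndufa12* that holds its place during assembly, was at −0.91 ± 1.40, and *Ndufaf6* was at −0.04 ± 0.83. No difference in these factors was detected at this depth.

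*Ndufa4*, first described in complex I and now assigned to complex IV, had 1733, 2160 and 1789 CPM in Atf3 high against 2722, 1543 and 2969 in Atf3 low. Atf3 low replicate 2 was the lowest of all 6 libraries and the other two Atf3 low libraries the highest, and the log2 fold change was −0.35 ± 0.34 (SE).

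Levels were also expressed as a share of the UMIs of all 47 members in the same library, which does not depend on how the libraries were scaled; this view was chosen after the data had been seen. *Ndufs5* took 1.63% (95% exact binomial interval 1.21 to 2.13), 0.826% (0.413 to 1.47) and 1.37% (1.06 to 1.75) in Atf3 high. In Atf3 low it took 0.211% (0.0847 to 0.433), 0.229% (0.0745 to 0.534) and 0.111% (0.0134 to 0.399). The interval of Atf3 high replicate 2 thus reached those of Atf3 low replicates 1 and 2 but not that of replicate 3, and the intervals of the other two Atf3 high libraries reached none of them. The log2 ratio of the means was 2.80.

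By the same measure *Ndufv3* took 2.46% ± 0.450 in Atf3 high against 3.61% ± 0.261 in Atf3 low (SD, n = 3), a log2 ratio of −0.55 without overlap. *Ndufs3* (1.47% ± 0.127 against 1.01% ± 0.111), *Ndufb4* (2.89% ± 0.384 against 2.33% ± 0.0462) and *Ndufaf8* (0.177% ± 0.0233 against 0.0791% ± 0.0206) also had a higher share in all 3 Atf3 high libraries. *Ndufb9* and *Ndufb5*, which did not overlap in CPM, overlapped as shares. For each of the 5 members without overlap the exact two-sided permutation p was 0.1. That value is fixed by the lack of overlap and adds nothing to it. The share of all genes without overlap was not computed for this measure.

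**Figure D5:**
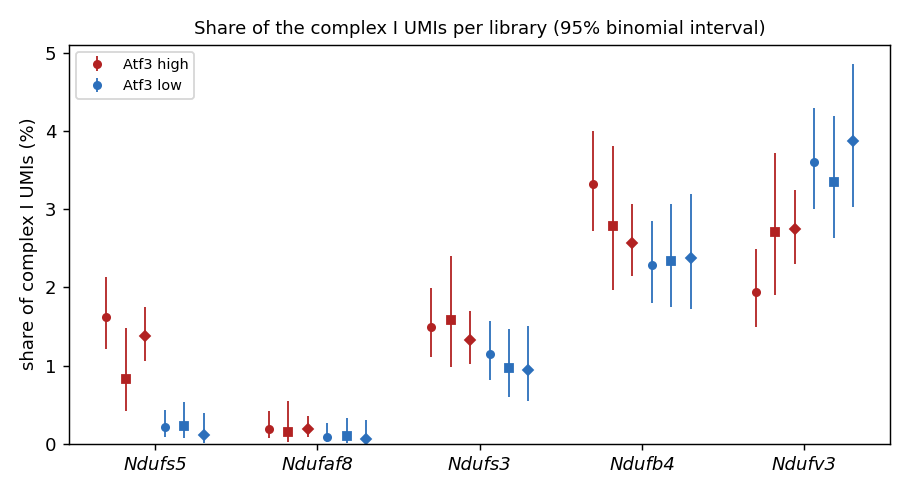
Share of the UMIs of all 47 members (percent, linear axis) taken by 5 members in each library, with 95% exact binomial intervals. Ndufs5 lies between 0.826% and 1.63% in Atf3 high against between 0.111% and 0.229% in Atf3 low.

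The 7 subunits encoded by mitochondrial DNA, which form the proton-pumping core of the membrane arm, were set beside the nuclear members. All 7 had a lower level in Atf3 high (median log2 fold change −0.44), and none was called without a replicate block. Their summed level was 67470, 83680 and 72270 CPM in Atf3 high against 116000, 93180 and 101300 in Atf3 low, without overlap. *mt-Nd3* had the smallest p (log2 fold change −1.08 ± 0.35), followed by *mt-Nd1* (−0.63 ± 0.26). For every 100 UMIs of these 7 genes the nuclear members had 23.6, 19.2 and 30.5 UMIs in Atf3 high against 19.3, 19.5 and 24.3 in Atf3 low, ranges that overlap. Of 9 tested assembly factors without an *Nduf* name, 6 were lower and none was called. Those of smallest p were *Dmac1*, a distal arm assembly factor (1.09 ± 0.67), and *Timmdc1*, which acts on the ND1 part (−1.11 ± 0.72). Among 10 tested regulators of respiratory genes 4 were lower and none was called. *Ppargc1a*, a coactivator of mitochondrial genes, was at −1.33 ± 0.48 and *Esrrb*, a nuclear receptor, at 2.20 ± 1.33. The value of *Esrrb* rests on 5, 3 and 6 UMIs in Atf3 high against 1, 1 and 0 in Atf3 low.

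Markers of cell types were compared in the same way. Of 12 cardiomyocyte markers, 11 had UMIs and *Mb* had none. All 11 were lower with TMM, 9 of 11 when scaled by library size, with *Myh6* (−1.81) called in edgeR and *Actc1* (−1.14) next. The call of *Myh6* was lost when Atf3 high replicate 1 or 2 or Atf3 low replicate 1 or 3 was left out. Their sum ranged from 29390 to 54570 CPM in Atf3 high against from 55600 to 71470 in Atf3 low. As a share of all UMIs the groups overlapped, from 3.00% to 5.56% in Atf3 high against from 4.81% to 6.41% in Atf3 low. Of 10 fibroblast markers 9 were higher, with a median of 0.83 led by *Postn* (1.59) and *Col1a2* (1.33), and their sum ranged from 2031 to 5701 CPM against 1553 to 2743. Without Atf3 high replicate 1 the fibroblast median was −0.09, and the cardiomyocyte median was −0.39 with 9 of 11 markers lower. In that setting the members' median was −0.20 with 33 of 43 lower, against 48.7% of all genes. It differed from the all-gene median by −0.23. Endothelial markers were higher for 6 of 9 (*Tie1* 1.32, *Kdr* 0.61) and mural markers for 6 of 8 (*Abcc9* −1.31, *Pdgfrb* 1.21). Macrophage markers were higher for 3 of 7 (*C1qb* −1.80 ± 1.11, *Csf1r* 2.05 ± 1.39, SE). None of the markers of these cell types was called. *C1qb* had 5, 0 and 1 UMIs in Atf3 high against 5, 9 and 1 in Atf3 low, and *Csf1r* 4, 5 and 4 against 0, 0 and 2. The only erythrocyte marker tested, *Hbb-bs*, was at −0.12, and none of 5 adipocyte markers had a UMI. For every 100 UMIs of the cardiomyocyte markers, complex I members had 53.7, 54.7 and 40.5 UMIs in Atf3 high against 40.3, 30.7 and 34.5 in Atf3 low. On that scale the members were higher, not lower, in Atf3 high (49.6 ± 7.95 against 35.1 ± 4.86, SD, n = 3). Atf3 high replicate 3 and Atf3 low replicate 1 were nearly equal. The marker sum includes *Myh6* (−1.81) and *Actc1* (−1.14), and the ratio was not computed without them. The part of cell makeup in the members' values was not tested.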

How the data were processed

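The libraries were made by photo-isolation chemistry with CEL-seq2, sequenced on a NovaSeq6000 and mapped by the authors to GRCm38. The submitters' processing notes name HISAT2 (version 2.1.0), UMI-tools (version 1.0.0) and featureCounts (version 1.6.4). The authors deposited 1 table with a UMI count for each gene in each library, without normalization. How reads shared by several genes were assigned, and the annotation release, were not given in the sources used here.

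TMM normalization and testing covered genes with a sum of 10 or more UMIs, using glmQLFit and glmQLFTest of edgeR (version 4.0.16; R version 4.3.3) without covariates, with Benjamini-Hochberg adjustment over 7665 genes and a threshold of 0.05. A positive log2 fold change is a higher level in Atf3 high. Exact two-sided permutation tests used log2(CPM + 4). Exact binomial intervals (95%) and the limit for a count of 0 (3 UMIs) cover counting error only. If the libraries of a group are not from separate hearts, p-values measure a spread that may be technical. The edgeR, DESeq2 (version 1.42.0) and limma (version 3.58.1) fits were also run on simulated counts with the same dispersion for all genes. The outcome is not given here and is not used as support for the results. Alternatives were other normalizations, filters, tools, a replicate block, each library left out, near-identical copies summed, and shares within the members.

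Values of 1 tested member, which stays in all counts and sums, are not reported here. Every other tested member is named. Per-library values are given for the core subunits, Ndufa12, Ndufs4, Ndufb8, Ndufa4, and members with an unadjusted p under 0.05 or without overlap. They are also given for the 5 members of smallest p in each direction. From each other list the 2 genes of smallest p are named. The members and lists were chosen with earlier results of these data known. Copies were found by BLAST+ (version 2.17.0) at 95% identity over 200 bases, with positions from the GENCODE annotation of GRCm38.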

Additional observations from a re-analysis of the deposited data

How the results depend on the processing

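Of the 44 members, 23 kept their direction under all 13 general alternatives, 5 kept it under the 7 to 12 of these in which they were tested, and 16 changed it under at least 1. The number of all genes called, of 7665 tested, stayed at 7 with library size scaling. It moved to 12 with DESeq2, 3 with limma-trend and 24 with the replicate block. Members called went from 0 to 1 with library size scaling, DESeq2 and the replicate block, in each case *Ndufs5* (with the block 2.45, edgeR adjusted p = 0.0144). The block also called *mt-Nd3* (−1.09, adjusted p = 0.0495), *Actc1* (−1.20), *Col1a2* (1.43) and *Col3a1* (1.38), and DESeq2 called *Actc1* (−1.18). Members at an unadjusted p under 0.05 went from 2 to 1 with library size scaling (against 514 of 7665 genes) and without a filter on low counts (against 623 of 17145). With the replicate block there were 3 (against 369 of 7665). Members without overlap went from 5 to 3 with library size scaling (0 lower and 3 higher, against 12.7% of all genes in either direction), to 2 without a filter (0 lower and 2 higher, against 6.51%) and to 3 with the filterByExpr filter (2 lower and 1 higher, against 12.6%). With a library left out, 0 members and 0 to 11 genes were called (11 without Atf3 high replicate 3, 6 without Atf3 low replicate 2, 0 without Atf3 low replicate 1 and 1 without each other library). An unadjusted p under 0.05 was found for 5 members without Atf3 high replicate 3 (against 446 of 6588 genes) and for 2 without Atf3 low replicate 2 (against 406 of 7081). It was found for 1 without Atf3 high replicate 1 or 2 or Atf3 low replicate 1 or 3 (against 282 of 6598 to 477 of 7026 genes). Of the members 31 to 35 were lower, against 44.1% to 48.7% of all genes, and the median was −0.43 to −0.20. From 8 to 17 members did not overlap (18.6% to 40.5%, against 18.8% to 23.9% of all genes, the highest of both without Atf3 high replicate 3). The difference in UMI share ranged from −0.293 to 0.0238 percentage points.

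Directions changed with library size scaling for *Ndufa1* (0.12), *Ndufa11* (0.14), *Ndufa5* (0.09), *Ndufaf6* (0.22), *Ndufb2* (0.16), *Ndufb3* (0.06), *Ndufc1* (0.03) and *Ndufs7* (0.05). They changed with RLE for *Ndufa3* (−0.03) and *Ndufb4* (−0.01), and with DESeq2 for *Ndufa3* (−0.03). They changed with limma-trend for *Ndufa3* (−0.11), *Ndufaf3* (0.09), *Ndufaf6* (0.10) and *Ndufs8* (0.62). They changed without a filter for *Ndufa11* (0.00), *Ndufaf6* (0.03) and *Ndufb2* (0.02), and with filterByExpr for *Ndufa3* (−0.01). With the replicate block they changed for *Ndufa3* (−0.11) and *Ndufaf6* (0.01). The cause of these changes was not tested.

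With each library left out in turn, ranges that crossed 0 were −0.27 to 0.08 (*Ndufa1*), −0.34 to 0.09 (*Ndufa11*), −0.55 to 0.32 (*Ndufa3*), −0.39 to 0.00 (*Ndufa5*), −1.17 to 0.05 (*Ndufaf3*), −0.24 to 0.58 (*Ndufaf4*), −1.29 to 1.61 (*Ndufaf6*), −0.49 to 0.09 (*Ndufb10*), −0.33 to 0.06 (*Ndufb2*), −0.57 to 0.14 (*Ndufb3*), −0.13 to 0.12 (*Ndufb4*), −0.69 to 0.22 (*Ndufb8*), −0.39 to 0.04 (*Ndufs7*), −0.79 to 0.48 (*Ndufs8*) and −0.08 to 0.52 (*Ndufv1*).

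Replicate numbers were not taken to pair the libraries. The study names a pairwise t test, which does not say whether equal numbers mark the same heart. Deviations of same-numbered libraries correlated by only 0.0851, 0.000876 and 0.0657 across genes. The libraries correlated best with their own number except both replicates 2. Correlations over counts this sparse cannot decide whether the libraries were paired, so the replicate block is given as an alternative. Sex-linked counts of both replicates 2 also differed. Atf3 high replicate 2 had 16 UMIs of Y chromosome genes and 0 of *Xist*, and Atf3 low replicate 2 had 1 and 13. With 81117 to 210588 UMIs per library, depth limits what can be read from *Ndufs6*, *Ndufb6*, *Ndufa4l2*, *Ndufs8* and most assembly factors.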
